A study of Mus musculus with 20 samples.

Results

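The change of RNA levels between standard medium and 2i medium was set side by side in induced pluripotent stem (iPS) cells and embryonic stem (ES) cells of the mouse, and transcript models were sorted by whether both lines changed alike. The 8 libraries used are the RNA libraries of 4 groups, out of 10 RNA libraries and 20 libraries in the series. The members are the 11031 transcript models that passed the filter on low counts, and 3011 of them passed the test of the difference between the responses. That difference, called the interaction here, is (iPS 2i minus iPS) minus (ES 2i minus ES) on the log2 scale, so a positive value means a more positive response in iPS cells.

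The iPS 2i cells were NPC-derived iPS cells expanded in serum-free 2i medium with LIF and the inhibitors CHIR99021 and PD0325901. The iPS cells were grown in KO DMEM with 15% FBS and LIF. Both iPS groups descend from primary neural progenitor cells (NPC) of 129SvJae x C57BL/6 mice that carry Sox2-eGFP. The ES 2i cells were male V6.5 cells of the same strain cross in the 2i medium, and the ES cells were V6.5 cells in a pluripotency medium with LIF. The labels give neither the serum content of the ES medium nor whether the ES and iPS standard media were the same. In standard medium, line and medium therefore cannot be told apart. The interaction holds both, and a response of iPS or ES cells below means the change from that line's own standard medium. All 4 groups were grown on feeder fibroblasts inactivated with Mitomycin-C and then passaged on gelatin to remove them. Each group had 2 libraries, which the labels do not tie to separate cultures or clones, so the p-values rest on a spread between libraries that may be no more than technical.

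The 2i medium combines an inhibitor of MEK, the kinase that activates ERK, with an inhibitor of GSK3, the kinase that marks beta-catenin for breakdown. ERK signalling drives mouse pluripotent cells toward differentiation, and beta-catenin relieves repression of naive pluripotency genes by TCF7L1. Cells in 2i are known for a uniform naive state, low levels of lineage genes and low DNA methylation, whereas cultures in serum are heterogeneous.

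Reads assigned to a model were 4903010 and 9622117 in iPS 2i, 5444578 and 6181280 in iPS, 15629093 and 14488815 in ES 2i, and 17286063 and 3729837 in ES libraries. Replicates correlated at 0.982 to 0.989 in these 4 groups (Pearson over models, which are not independent). Reads in no model were 65.02% and 37.4% in iPS 2i, 75.8% and 68.4% in iPS, 35.7% and 28.2% in ES 2i, and 26.5% and 81.5% in ES libraries. This share was lower in iPS 2i than in iPS libraries, and its part in the results was not tested. Reads set aside as ambiguous were 16.4% and 30.15% in iPS 2i and 11.5% and 15.1% in iPS libraries. In ES 2i libraries they were 30.4% and 35.1%, and in ES libraries 35.6% and 9.01%. Levels are given in CPM, counts scaled to library size (per 1e6 reads) by TMM, and they are not per length, so they compare libraries and not genes. In bulk RNA, fewer cells of a type and less RNA per cell cannot be told apart.

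The marker lists were read against the labels first. All 4 groups held the core pluripotency genes, with summed levels of 10680 to 10810 CPM in iPS 2i, 9756 to 11130 in iPS, 8525 to 9347 in ES 2i and 9196 to 10080 in ES libraries. Summed levels of the 9 measured fibroblast genes were 577.1 to 579.6 CPM in iPS 2i, 852.1 to 867.1 in iPS, 328.2 to 329.4 in ES 2i and 354.5 to 356.7 in ES libraries. Those of the 11 measured neural progenitor genes were 1162 to 1302 CPM in iPS 2i, 2579 to 2796 in iPS, 846.2 to 851.8 in ES 2i and 870.7 to 910.1 in ES libraries. Vim, the vimentin gene, made up most of the neural sums, with 962 and 1127 CPM in iPS 2i, 2369 and 2208 in iPS, 736 and 724 in ES 2i and 722 and 739 in ES libraries, and the members of that list moved both ways. Both sums were highest in iPS libraries and lower in iPS 2i libraries, while their ES levels differed little between media. Whether cells of those types were in the cultures was not tested.

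Of the 11031 models, 4701 (42.6%) changed in iPS cells and 2705 (24.5%) in ES cells, at an adjusted p under 0.05 by the quasi-likelihood F test of edgeR with Benjamini-Hochberg adjustment over all models. The interaction passed in 27.3% of models, higher in 1667 (15.1%) and lower in 1344 (12.2%). The median size of the response was 0.579 in iPS and 0.35 in ES cells (absolute log2), with median standard errors of 0.305 and 0.266. The median signed response was 0.0292 in iPS and 0.00247 in ES cells. Across models the responses of both lines, which share no library, correlated at 0.464 (Pearson, over models and not over samples). Without iPS replicate 1 there were 2003 interaction calls, 888 of them lower, and without ES replicate 1 there were 1803 ES calls.

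A shared response means a call in the same direction in both lines. Without an interaction call there were 957 such models (8.68%), 438 rising and 519 falling in both lines. With an interaction call there were 375 (3.40%), and the response was the larger one in iPS cells in 310 of them and in ES cells in 65. A line-specific response means a call in one line and in the interaction. It was found in iPS cells for 1773 models (16.1%), 952 rising and 821 falling, and in ES cells for 402 models (3.64%), 167 rising and 235 falling. Opposite responses, called in both lines with unlike signs, made up 335 models (3.04%), of which 188 rose in iPS and 147 fell in iPS cells. A further 1261 models (11.4%) changed in iPS cells and 636 (5.77%) in ES cells with no interaction call, so for these a difference between the lines was not shown. Another 126 (1.14%) passed in the interaction alone. The lines themselves differed in 52.9% of models in standard medium (iPS minus ES, 25.9% higher and 26.9% lower) and in 25.3% in 2i (iPS 2i minus ES 2i, 13.7% higher and 11.6% lower). The counts depend on single libraries: without ES replicate 1 there were 167 opposite and 251 ES-only models, without iPS replicate 1 there were 192 opposite and 1113 iPS-only models, and without ES 2i replicate 2 there were 222 opposite models.

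**Figure D1:**
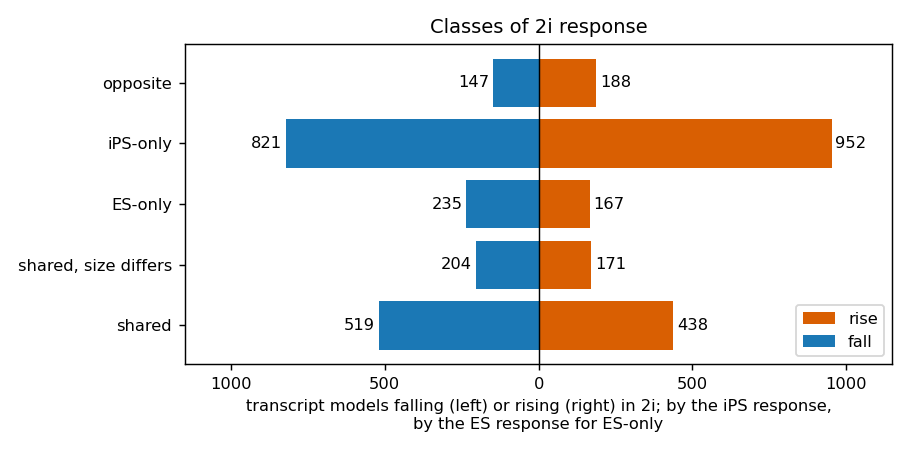
Number of transcript models in each response class, rising (orange, right) or falling (blue, left) in 2i, by the iPS response, or by the ES response for the ES-only class. The iPS-only class is the largest of the 5, with 952 rises and 821 falls, against 167 rises and 235 falls in the ES-only class.

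**Figure D2:**
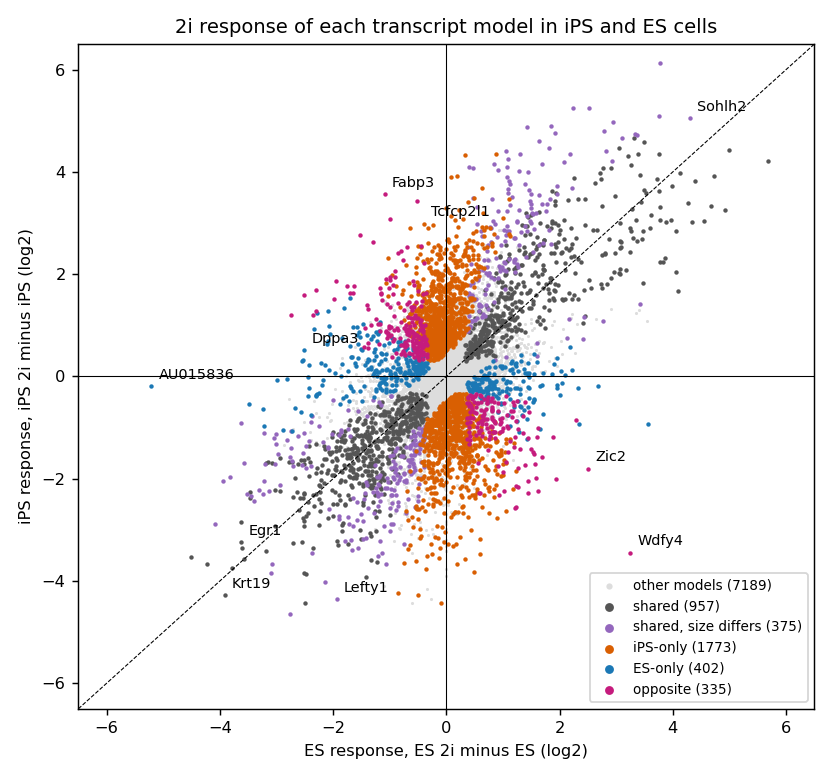
The 2i response of each of the 11031 models in iPS cells (vertical axis, log2) against that in ES cells (horizontal axis, log2), coloured by class; the dashed line marks equal responses. Shared models such as Egr1 and Krt19 lie along the dashed line, Fabp3, Zic2 and Wdfy4 lie in the quadrants of unlike sign, and the iPS-only models spread along the vertical axis.

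Of 18 measured genes of the ERK response list, 9 fell in both lines and Etv4 rose in both. Egr1, an immediate early transcription factor induced by ERK, had 2.25 and 2.23 CPM in iPS 2i, 21.9 and 24.5 in iPS, 1.57 and 1.3 in ES 2i and 17.9 and 24.8 in ES libraries. The 2i libraries were lower in both lines, with no overlap, and the changes were −3.24 ± 0.25 in iPS and −3.62 ± 0.23 in ES cells (log2 ± SE, n = 2 libraries a group; edgeR adjusted p = 2.17e-12 and 2.51e-14). Junb, a subunit of the AP-1 factor, fell by 1.75 in iPS and by 1.39 in ES cells (log2), and Dusp6, a phosphatase of ERK, fell by 0.76 in iPS and by 1.18 in ES cells. In all, 10 genes of the list fell and 1 rose in iPS cells, and 12 fell and 1 rose in ES cells, while Ier2, Spred1, Spred2 and Etv1 had no call in either line. Etv4, an ETS factor, rose by 1.18 in iPS and by 0.91 in ES cells. The list medians were −0.75 in iPS and −1.13 in ES cells. For scale, of all models 21.1% rose and 21.5% fell in iPS cells, 11.3% rose and 13.2% fell in ES cells, and 15.1% had a higher and 12.2% a lower interaction.

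The interaction passed in 5 of the 18 measured genes of the ERK list, near the 27.3% of all models. Spry4, a feedback inhibitor of receptor tyrosine kinase signalling, had 149 and 143 CPM in iPS 2i, 135 and 118 in iPS, 158 and 156 in ES 2i and 464 and 481 in ES libraries. Only the ES libraries in standard medium stood high, and the fall of −1.59 in ES cells had no counterpart in iPS cells, where the change was 0.20 with an adjusted p of 0.207; the interaction was 1.79 ± 0.18 (edgeR adjusted p = 6.66e-09). Ccnd1, the cyclin D1 gene, went the other way: it had 320.2 and 353 CPM in iPS 2i, 893 and 813 in iPS, 396 and 364 in ES 2i and 355 and 343 in ES libraries. The iPS libraries were the high ones, and the interaction was −1.46 ± 0.18 (edgeR adjusted p = 2.56e-07). Fos and Dusp4 fell in both lines and fell more in iPS cells, with interactions of −1.10 and −0.52 and edgeR adjusted p-values of 0.0106 and 0.0433. Fosl1, another AP-1 subunit, fell more in ES cells, by 2.52, than in iPS cells, by 1.11, with an interaction of 1.41 (edgeR adjusted p = 0.0176), which did not pass without ES 2i replicate 1, iPS replicate 2 or iPS 2i replicate 1. For Fos and Dusp4 neither interaction passed without ES replicate 1 or without ES 2i replicate 2, that of Fos also not without iPS replicate 2, and that of Dusp4 also not without ES replicate 2, iPS replicate 1 or either iPS 2i library.

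Other shared falls were of cytoskeletal and epithelial genes. Of 16 measured actin and SRF targets, 14 fell in iPS and 12 in ES cells, 9 of them in both lines with no interaction call. Of all models, 21.5% fell in iPS and 13.2% in ES cells. Acta2, smooth muscle actin, had 356 and 376 CPM in iPS 2i, 1556 and 1679 in iPS, 158 and 161 in ES 2i and 681 and 829 in ES libraries. Tagln, an actin-binding protein, fell by 2.36 in iPS cells and fell by 2.71 in ES cells (log2). Keratin 19 (Krt19), an intermediate filament protein of simple epithelia, had 10.0 and 14 CPM in iPS 2i, 236 and 255 in iPS, 1.82 and 2.01 in ES 2i and 28.3 and 38.2 in ES libraries. Its level was higher in iPS than in ES cells in either medium, and it fell by 4.28 in iPS and by 3.91 in ES cells on the log2 scale. Krt8, a keratin that pairs with it, had 43.5 and 38.7 CPM in iPS 2i, 467 and 579 in iPS, 24.7 and 23.9 in ES 2i and 192 and 224 in ES libraries, with an interaction of −0.60 (edgeR adjusted p = 0.0264). That interaction did not pass without ES replicate 1, ES 2i replicate 1, iPS replicate 2 or either iPS 2i library. All 6 measured epithelial and trophoblast genes fell in ES cells and 5 fell in iPS cells. The exception was Ascl2, a trophoblast transcription factor, with 12.5 and 8.22 CPM in iPS 2i, 5.57 and 3.06 in iPS, 2.13 and 2.79 in ES 2i and 12.6 and 15 in ES libraries. It rose by 1.20 in iPS cells and changed by −2.35 in ES cells, and the interaction was 3.56 ± 0.44 (edgeR adjusted p = 1.3e-07).

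The rule for the largest shared responses without an interaction call named 3 rises and 3 falls, Krt19 among them. Pnpla8, a calcium-independent phospholipase, had 43.9 and 50.3 CPM in iPS 2i, 4.12 and 3.4 in iPS, 27.4 and 27.7 in ES 2i and 2.13 and 2.37 in ES libraries. The rises were 3.58 in iPS and 3.52 in ES cells. The unnamed cDNA models AK139772 and AK139522 rose by 3.63 and 3.41 in iPS and by 3.76 and 3.44 in ES cells (log2). The iPS rise of AK139522 rests on 6 reads in iPS libraries. Rgs16, a regulator of G-protein signalling, had 2.87 and 2.44 CPM in iPS 2i, 33.2 and 33.7 in iPS, 2.13 and 2.08 in ES 2i and 27.7 and 27.4 in ES libraries, and fell by 3.57 on the log2 scale in each line. Lad1, a basement membrane anchor of epithelia, fell by 3.76 in iPS cells and fell by 3.79 in ES cells.

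Most germline genes rose in both lines, and several rose more in iPS cells. These genes act in meiosis and transposon control and are known to be silenced by DNA methylation in somatic cells. Of 8 measured, 7 rose in iPS and 7 in ES cells (21.1% and 11.3% of all models). The interaction passed in 4, all higher (15.1% of all models), against 2 with limma on the authors' normalized log2 values. Rpl10l, a testis form of a ribosomal protein with near-identical relatives that make its count uncertain, had 149 and 154 CPM in iPS 2i, 3.92 and 6.64 in iPS, 162 and 139 in ES 2i and 37 and 43.2 in ES libraries. The 2i levels of both lines met at about the same height, and the iPS libraries were the lowest; the rises were 4.76 ± 0.20 in iPS and 1.93 ± 0.15 in ES cells, with an interaction of 2.83 (edgeR adjusted p = 1.24e-09). Sohlh2, a germ cell transcription factor, had 118 and 124 CPM in iPS 2i, 2.89 and 3.92 in iPS, 218 and 207 in ES 2i and 10.3 and 11.1 in ES libraries, and rose by 5.04 in iPS and by 4.31 in ES cells. Its interaction of 0.74 had an adjusted p of 0.0351 by edgeR and did not pass in 11 of 20 alternatives. Mael and Piwil2, both of the piRNA pathway, had interactions of 2.14 and 1.35, with edgeR adjusted p-values of 7.01e-06 and 3.64e-05.

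Among opposite models that rose in iPS cells, the interaction was largest, of those the naming rule allowed, for Fabp3, a fatty acid-binding protein (chr4:129986022-129992707, mm9). It had 192 and 158 CPM in iPS 2i, 15.1 and 14.1 in iPS, 150.0 and 173 in ES 2i and 320.4 and 370.3 in ES libraries. The iPS libraries were far below the other 6, and in 2i both lines lay in the same range. Fabp3 rose by 3.56 ± 0.17 in iPS cells and changed by −1.09 ± 0.13 in ES cells, an interaction of 4.65 ± 0.21 (edgeR adjusted p = 4.33e-16). The gap between the lines, iPS minus ES, was −4.54 in standard medium, against 0.11 in 2i (log2). The interaction is the change of this gap between media. The gaps here and below are thus the same result from the same libraries and lend it no support. Krt42, a type I keratin, had 6.76 and 4.16 CPM in iPS 2i, 0.619 and 0.511 in iPS, 7.77 and 8.83 in ES 2i and 19.9 and 30.3 in ES libraries, with an interaction of 4.29 that rests on 6 reads in iPS libraries. Gm4934, which RefSeq lists under Spata31d1b, had 20.5 and 19.5 CPM in iPS 2i, 2.47 and 1.87 in iPS, 12 and 13.7 in ES 2i and 23.1 and 29.8 in ES libraries. Its levels rose by 3.08 in iPS and changed by −0.99 in ES cells. Gcnt2, a glycosyltransferase, rose by 3.42 in iPS cells, but its ES fall of −0.52 is slight, with an adjusted p of 0.0441, and it stayed in the opposite class in 5 of 22 alternatives.

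Among opposite models that fell in iPS cells, Zic2, a zinc finger factor of the epiblast and neural plate, had 42.2 and 47.8 CPM in iPS 2i, 174 and 144 in iPS, 62.7 and 65 in ES 2i and 10.6 and 12.4 in ES libraries. The iPS libraries were the highest and the ES libraries the lowest, and both 2i groups lay between. Zic2 fell by 1.80 in iPS cells and rose by 2.50 ± 0.17 in ES cells, with an interaction of −4.30 ± 0.22 (edgeR adjusted p = 5.38e-15). The gap, iPS minus ES, was 3.81 in standard medium, against −0.50 in 2i. Zic5, its neighbour in the same gene family, had 18 and 17.1 CPM in iPS 2i, 33 and 31 in iPS, 28.3 and 28.4 in ES 2i and 5.67 and 5.53 in ES libraries, the same order of groups. Wdfy4, known in dendritic cells for its part in antigen cross-presentation, had 20.9 and 21.5 CPM in iPS 2i, 247 and 221 in iPS, 3.38 and 2.4 in ES 2i and 0.112 and 0 in ES libraries. The ES value rests on 2 reads, and the ES 2i over ES ratio of 31.4 has a 95% counting interval of 8.43 to 263, exact and covering counting error only. Both NPC libraries held 0 reads of Wdfy4. Abca13, an ABC transporter, had 19.1 and 30.7 CPM in iPS 2i, 149.9 and 152 in iPS, 1.88 and 2.21 in ES 2i and 0.842 and 0.263 in ES libraries, and Podxl2, a sialomucin, had 1.23 and 1.52 CPM in iPS 2i, 7.84 and 6.64 in iPS, 2.69 and 2.01 in ES 2i and 0.786 and 1.05 in ES libraries. For all 5 genes the iPS libraries were above the other 6 without overlap. In NPC libraries Podxl2 was higher still, at 164 and 178 CPM, while Zic2 had 25.1 and 31.6 and Abca13 had 0 and 0.29.

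**Figure D3:**
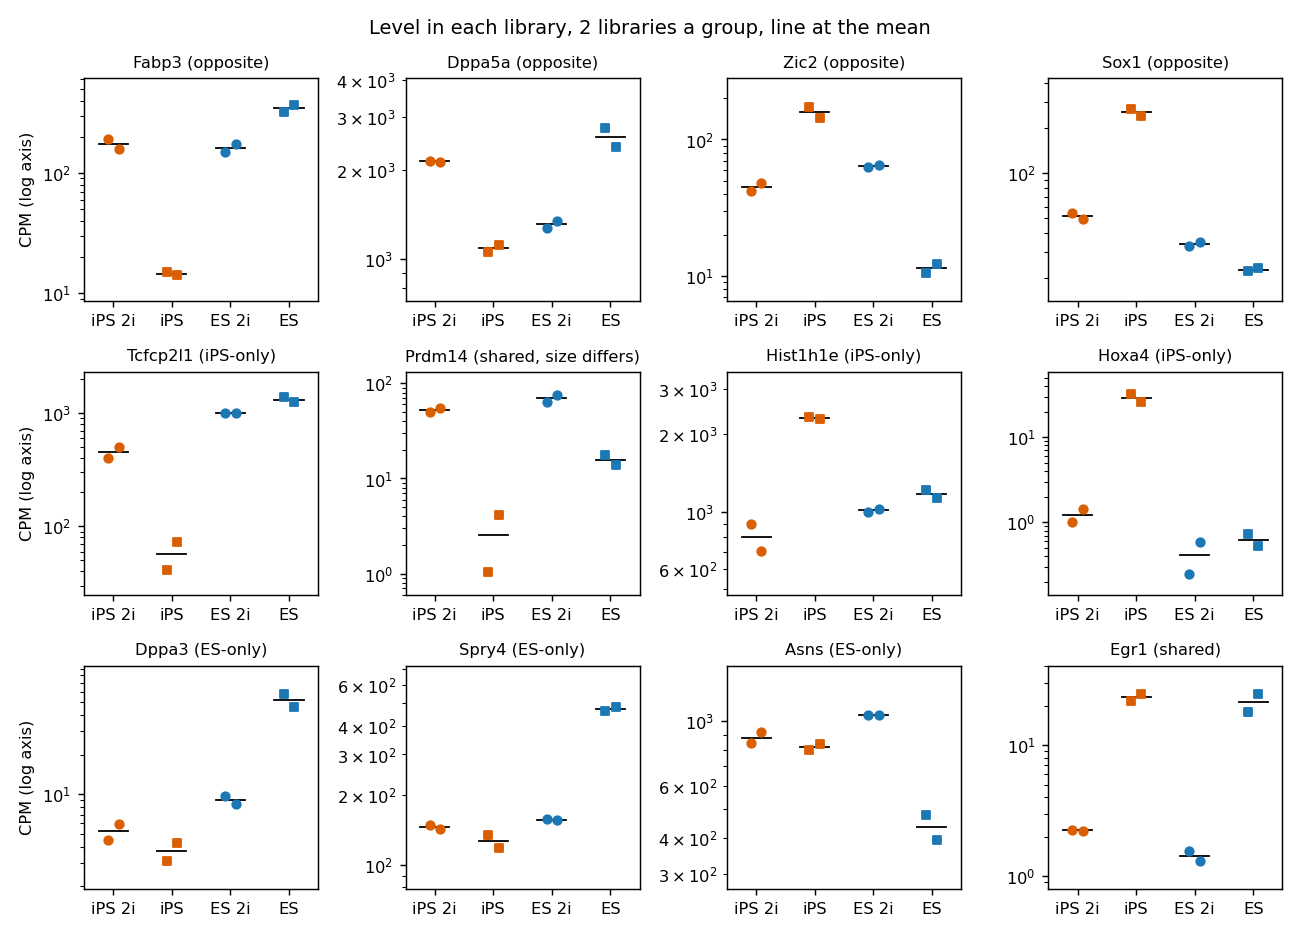
Level (CPM, log axis) of 12 genes in each library, in the order iPS 2i, iPS, ES 2i and ES; points are libraries, 2 a group, and lines are group means. For Fabp3, Tcfcp2l1 and Prdm14 the iPS libraries are the lowest, for Zic2, Sox1, Hist1h1e and Hoxa4 they are the highest, and for Dppa3, Spry4 and Asns the ES libraries stand apart.

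The iPS-only rises included Tcfcp2l1, a transcription factor of the naive state downstream of LIF. It had 403 and 504 CPM in iPS 2i, 41.2 and 72.2 in iPS, 1004 and 999.6 in ES 2i and 1381 and 1261 in ES libraries. It rose by 2.99 ± 0.18 in iPS cells, while ES cells changed by −0.40 ± 0.16 with an adjusted p of 0.067, and the interaction was 3.39 ± 0.24 (edgeR adjusted p = 1.24e-11). The gap was still −1.14 in 2i, against −4.53 in standard medium. The gene 1190002H23Rik, listed by RefSeq as Rgcc, a regulator of the cell cycle, had 14.8 and 16.7 CPM in iPS 2i, 0.825 and 0.34 in iPS, 7.2 and 8.76 in ES 2i and 6.23 and 6.58 in ES libraries. Its interaction of 4.01 rests on 6 reads in iPS libraries. Ankrd45, an ankyrin repeat gene, had 31 and 26.3 CPM in iPS 2i, 1.86 and 1.53 in iPS, 47.2 and 40.8 in ES 2i and 44 and 37.9 in ES libraries. Mylpf, a fast muscle myosin light chain, had 416 and 387 CPM in iPS 2i, 51.8 and 54.8 in iPS, 327 and 355 in ES 2i and 434 and 424 in ES libraries. Its ES change was −0.33 (edgeR adjusted p = 0.0677), and it stayed iPS-only in 18 of 22 alternatives. Sept1, a septin, lies 154 bases from Mylpf on chromosome 7 (mm9) and had 555 and 529 CPM in iPS 2i, 28.5 and 34 in iPS, 427 and 470.3 in ES 2i and 322 and 358 in ES libraries. Since Sept1 also rose by 0.40 in ES cells it belongs to the shared class with unequal size, but both neighbours stood at a small part of their ES level in iPS libraries alone. Mmrn2, an extracellular matrix protein of vessels, rose by 4.07 in iPS and by 0.47 in ES cells. Its ES rise had an edgeR adjusted p of 0.0293, and it stayed in the same class as Sept1 in 13 of 22 alternatives.

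The named iPS-only falls were of genes that were high in iPS libraries alone among the 4 groups. Chst13, a carbohydrate sulfotransferase, had 3.89 and 3.45 CPM in iPS 2i, 56.5 and 41.7 in iPS, 0.251 and 0.13 in ES 2i and 0.168 and 0 in ES libraries, and Pkp1, a desmosomal plakophilin, had 4.92 and 4.57 CPM in iPS 2i, 50.1 and 39.7 in iPS, 0.313 and 0.0649 in ES 2i and 0.0561 and 0 in ES libraries. ES cells held 9 and 7 reads of these genes in all, so no ES change is given, and both NPC libraries held 0. Without ES 2i replicate 1 the interactions did not pass, at edgeR adjusted p-values of 0.088 and 0.244. Of the 821 models in this direction, 71 were below 1 CPM in ES cells in both media, where a fall in ES cells could hardly be measured. Samd14 had 0.82 and 1.22 CPM in iPS 2i, 14 and 11.7 in iPS, 1.25 and 0.909 in ES 2i and 0.954 and 1.05 in ES libraries, and both NPC libraries were higher, at 60.3 and 67.8 CPM. Apcdd1, a membrane inhibitor of WNT signalling, had 3.89 and 6.09 CPM in iPS 2i, 48.5 and 39.3 in iPS, 3.95 and 3.18 in ES 2i and 2.64 and 2.37 in ES libraries. It fell by 3.01 in iPS cells, with an interaction of −3.45 ± 0.39 (edgeR adjusted p = 3.97e-08). Ube2ql1 and Sh3pxd2b, an adaptor of podosomes, fell in both lines, by 3.67 and 3.28 in iPS and by 1.07 and 0.74 in ES cells. In NPC libraries Ube2ql1 had 74.5 and 79.4 CPM, Sh3pxd2b had 518 and 550, and Apcdd1 had 0 and 0.29.

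The ES-only falls were led by AU015836, an X-linked gene with 0.615 and 1.52 CPM in iPS 2i, 1.44 and 1.36 in iPS, 0.877 and 0.519 in ES 2i and 36.2 and 32.7 in ES libraries. The ES libraries alone held it at more than trace level, and the ES change was −5.21 ± 0.31, against −0.19 ± 0.53 in iPS cells; the interaction was 5.02 (edgeR adjusted p = 2.85e-07). Dppa3, a maternal factor that protects methylation in the zygote and is expressed in part of a naive culture, had 4.51 and 5.99 CPM in iPS 2i, 3.09 and 4.26 in iPS, 9.65 and 8.44 in ES 2i and 58 and 45.8 in ES libraries. Gpnmb, a transmembrane glycoprotein, and Stmn3, a stathmin, had interactions of 2.76 and 2.48, and among the 4 groups each was highest in both ES libraries. NPC libraries held more Stmn3, at 83.7 and 102 CPM, and less Gpnmb, at 1.67 and 2.32. The 4 genes named for a rise in ES cells alone were lower in ES libraries than in iPS libraries of either medium. P4htm, a transmembrane prolyl hydroxylase, had 10.2 and 14.9 CPM in iPS 2i, 21 and 12.6 in iPS, 14.2 and 16.3 in ES 2i and 3.42 and 4.21 in ES libraries, and Cyp2b23, a cytochrome P450, had 31.6 and 42 CPM in iPS 2i, 35.7 and 32.3 in iPS, 12.5 and 11.4 in ES 2i and 2.69 and 1.32 in ES libraries. Ttc39c and 2810030E01Rik rose by 1.95 and 1.95 in ES cells, with interactions of −2.18 and −2.13.

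Promoter windows (250 bases before to 50 after a start, RefSeq, GRCm38.p6) were searched for letters of factors that 2i or LIF signalling acts through. The motifs were TCF/LEF (CTTTGAT or CTTTGAA), ESRRB (TCAAGGTCA or its core AAGGTCA, which the longer form contains), STAT3 (TTCNNNGAA), EGR1 (GCGTGGGCG) and the CArG box of SRF, each on both strands. From the 34 models named by size, 1 gene each of the opposite, iPS-only and ES-only classes whose window held a match is shown, with the match in capitals: Krt42 of the opposite class for STAT3 (chr11:100269902-100270201, minus strand), Ankrd45 of the iPS-only rises for ESRRB (chr1:161142447-161142746, plus strand, the first of 2 windows), and Stmn3 of the ES-only falls for TCF/LEF (chr2:181314451-181314750, minus strand).
Krt42: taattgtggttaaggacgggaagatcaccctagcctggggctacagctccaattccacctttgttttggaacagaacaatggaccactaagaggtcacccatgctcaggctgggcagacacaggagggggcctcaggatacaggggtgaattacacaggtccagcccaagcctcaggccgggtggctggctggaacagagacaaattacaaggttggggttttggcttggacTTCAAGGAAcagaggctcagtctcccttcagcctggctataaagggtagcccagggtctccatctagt
Ankrd45: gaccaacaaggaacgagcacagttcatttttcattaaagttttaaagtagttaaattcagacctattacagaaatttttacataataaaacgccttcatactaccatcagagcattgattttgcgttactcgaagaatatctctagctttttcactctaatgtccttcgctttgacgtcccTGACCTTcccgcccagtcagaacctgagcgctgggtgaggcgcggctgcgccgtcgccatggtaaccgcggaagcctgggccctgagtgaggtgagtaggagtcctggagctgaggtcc
Stmn3: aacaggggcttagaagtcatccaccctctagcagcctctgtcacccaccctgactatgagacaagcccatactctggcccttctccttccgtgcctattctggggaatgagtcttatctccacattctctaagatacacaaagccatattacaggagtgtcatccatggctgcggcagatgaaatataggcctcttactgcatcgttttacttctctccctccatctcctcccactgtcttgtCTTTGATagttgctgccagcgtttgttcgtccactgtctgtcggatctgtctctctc

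A window was found for 681 of the 946 genes with an iPS-only rise, 597 of 814 with an iPS-only fall, 115 of 166 with an ES-only rise and 169 of 235 with an ES-only fall. ESRRB letters were in 3.82% of the iPS-only rises, 2.35% of the iPS-only falls, 6.09% of the ES-only rises, 5.33% of the ES-only falls, 4.35% of the opposite genes that rose and 1% of those that fell in iPS cells, against 3.67% of the 6695 genes tested with a window and 5.38% of all 27025 genes with one. TCF/LEF letters were in 6.75% of the iPS-only rises, 4.36% of the iPS-only falls, 5.22% of the ES-only rises, 7.69% of the ES-only falls, 5.8% of the 138 opposite genes that rose and 9% of the 100 that fell in iPS cells, 5.97% of the shared rises and 5.33% of the 525 shared falls, against 6.02% of the genes tested and 9.88% of all. STAT3 letters were in 6.9% of the iPS-only rises, 6.53% of the iPS-only falls, 4.35% of the ES-only rises, 9.47% of the ES-only falls, 5.8% of the opposite genes that rose and 4% of those that fell in iPS cells, against 7.33% of the genes tested and 9.55% of all. CArG box letters were in 2.86% of the shared falls and 0.896% of the shared rises, against 1.54% of the genes tested and 1.81% of all. EGR1 letters were in 5% of the opposite genes that fell in iPS cells, which is 5 genes, in 2.9% of those that rose, in 1.71% of the shared falls and in 1.49% of the shared rises, against 1.34% of the genes tested and 0.707% of all. A match describes letters in a window and not a bound site, and the shares carry no test.

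Most naive pluripotency genes rose in iPS cells, while in ES cells few rose and some fell. Of 15 measured, the interaction was higher in 11 and lower in 1, 11 rose in iPS cells, and in ES cells 3 rose and 5 fell. Of all models, 15.1% had a higher and 12.2% a lower interaction, 21.1% rose in iPS cells, and 11.3% rose and 13.2% fell in ES cells. The list medians were 1.06 in iPS and −0.01 in ES cells. With limma on the authors' normalized log2 values the number of higher interactions was 7. Prdm14, a repressor of FGF signalling and of DNA methylation, had 50.6 and 55.2 CPM in iPS 2i, 1.03 and 4.09 in iPS, 63.5 and 75.5 in ES 2i and 17.7 and 14 in ES libraries. It rose in both lines, by 4.19 in iPS and by 2.07 in ES cells, with an interaction of 2.12 ± 0.37 (edgeR adjusted p = 3.52e-05). Klf5, a Krüppel-like factor of the naive network, had 16.4 and 15.1 CPM in iPS 2i, 3.51 and 4.43 in iPS, 31.7 and 24.5 in ES 2i and 27.7 and 34.8 in ES libraries, and Zfp57, which guards imprints, had 34.8 and 38.2 CPM in iPS 2i, 7.42 and 7.83 in iPS, 51.2 and 51.2 in ES 2i and 50.9 and 39 in ES libraries. Esrrb, an orphan nuclear receptor, had 2.66 and 3.65 CPM in iPS 2i, 0 and 0.681 in iPS, 8.21 and 5.84 in ES 2i and 4.43 and 4.21 in ES libraries. This low level is that of a single transcript model. Reads it shares with overlapping models were not counted, so the level of the gene may be higher. The interaction was 1.86 (edgeR adjusted p = 0.0193). It did not pass without ES replicate 1, iPS replicate 1 or iPS 2i replicate 2. In these 4 genes the iPS libraries were the lowest of the 8.

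In 3 members of the naive list an iPS rise stood against an ES fall. Dppa5a, an RNA-binding protein with near-identical copies in the genome, had 2135 and 2127 CPM in iPS 2i, 1059 and 1115 in iPS, 1274 and 1345 in ES 2i and 2756 and 2389 in ES libraries. Its responses were 0.97 in iPS and −0.97 in ES cells, and the interaction was 1.94 ± 0.18 (edgeR adjusted p = 2.28e-09). Tdh, the threonine dehydrogenase of mouse pluripotent cells, had 1194 and 1186 CPM in iPS 2i, 371 and 396 in iPS, 956 and 1065 in ES 2i and 1284 and 1314 in ES libraries, and stayed opposite in 12 of 22 alternatives. Nr0b1, an orphan receptor and repressor, had 218 and 202 CPM in iPS 2i, 108 and 93.5 in iPS, 238 and 225 in ES 2i and 287 and 353 in ES libraries. Klf4 was the lone member with a lower interaction: it had 149.9 and 152 CPM in iPS 2i, 358 and 279.7 in iPS, 161 and 156 in ES 2i and 83.7 and 95.1 in ES libraries, with −1.92 ± 0.19 (edgeR adjusted p = 5.39e-09). The iPS libraries held the most Klf4, the ES libraries the least, and both 2i groups lay between. Gdf3, a TGF-beta family ligand, had 512 and 463 CPM in iPS 2i, 554 and 513 in iPS, 407 and 435 in ES 2i and 399.5 and 359 in ES libraries, with no call in either line.

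Of 13 measured core pluripotency genes, 8 rose and 1 fell in iPS cells (21.1% and 21.5% of all models). In ES cells 2 rose and 1 fell (11.3% and 13.2% of all models). The interaction was higher in 5 and lower in 1 (15.1% and 12.2% of all models). The list medians were 0.82 in iPS and 0.07 in ES cells. With limma on the authors' normalized log2 values 2 were higher and 0 lower. Pou5f1, the OCT4 gene, had 1479 and 1507 CPM in iPS 2i, 3898 and 2913 in iPS, 848 and 974 in ES 2i and 1159.7 and 1117 in ES libraries. It fell by 1.19 in iPS cells, against a change of −0.32 in ES cells with an adjusted p of 0.0874, and the interaction was −0.87 ± 0.19 (edgeR adjusted p = 0.00103). Without iPS replicate 1 the interaction was −0.64 and did not pass. Nor did it pass with limma on the authors' normalized log2 values, at −0.90 (limma adjusted p = 0.205). Sox2 had 329 and 327 CPM in iPS 2i, 111 and 117 in iPS, 627 and 476 in ES 2i and 477 and 576 in ES libraries. It rose by 1.52 in iPS cells, with an interaction of 1.45 ± 0.20 (edgeR adjusted p = 1.18e-06). Both iPS groups carry Sox2-eGFP, and its part in this value was not tested. Dppa2, a chromatin factor of bivalent promoters, and Mybl2, a cell cycle factor, had interactions of 1.35 and 1.23, with edgeR adjusted p-values of 7.02e-06 and 8.75e-06. Lin28a, an inhibitor of let-7 processing, had 829 and 854 CPM in iPS 2i, 816 and 882 in iPS, 917 and 879 in ES 2i and 1231 and 1172 in ES libraries. Of the 3 measured reprogramming factor genes, Pou5f1 and Klf4 fell and Sox2 rose in iPS cells. Whether reads of introduced copies of these genes, if the iPS cells carried any, are among the counts was not tested.

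Genes of the primed and formative epiblast fell in most cases in iPS cells. Of 13 measured, 9 fell and 3 rose in iPS cells (21.5% and 21.1% of all models). In ES cells 6 fell and 2 rose (13.2% and 11.3% of all models). The interaction was higher in 5 of the 13 and lower in 3 (15.1% and 12.2% of all models). Without iPS replicate 1, and likewise without iPS 2i replicate 2, 3 were higher, and 1 was with limma on the authors' normalized log2 values. Lefty1, a NODAL antagonist, had 72 and 78.3 CPM in iPS 2i, 1576 and 1517 in iPS, 25.4 and 33.9 in ES 2i and 115 and 113 in ES libraries. The iPS libraries held it at the highest level by far, and it fell by 4.36 in iPS and by 1.93 in ES cells, with an interaction of −2.42 ± 0.20 (edgeR adjusted p = 2.84e-10). Pou3f1, the OCT6 gene of the primed epiblast, fell by 2.82 in iPS and by 2.52 in ES cells, with no interaction call. Foxd3, an epiblast repressor, had 66.8 and 63.9 CPM in iPS 2i, 28.5 and 22.8 in iPS, 54.6 and 64.9 in ES 2i and 58.8 and 75.3 in ES libraries.

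Most BMP and TGF-beta targets fell, but not evenly: 9 of 13 fell in iPS and 8 in ES cells (21.5% and 13.2% of all models). Of these 13, 3 had a higher and 5 a lower interaction (15.1% and 12.2% of all models). The number of lower ones was 3 with any single iPS 2i or iPS library left out, without ES replicate 1 and without ES 2i replicate 2. The ID proteins are inhibitors of helix-loop-helix factors and classical BMP targets. Id1 had 68.7 and 71.3 CPM in iPS 2i, 251 and 216 in iPS, 24 and 26.5 in ES 2i and 145 and 152 in ES libraries and Id2 had 5.12 and 5.68 CPM in iPS 2i, 28 and 28.9 in iPS, 6.7 and 3.9 in ES 2i and 61 and 59 in ES libraries. Both fell more in ES cells, with interactions of 0.81 and 1.11 and edgeR adjusted p-values of 0.00116 and 0.00771. That of Id2 had an edgeR adjusted p of 0.0803 without ES 2i replicate 2 and 0.0776 without iPS 2i replicate 2. Id3 did the reverse: it had 68.7 and 75.1 CPM in iPS 2i, 213 and 174 in iPS, 95.2 and 113 in ES 2i and 42 and 42.4 in ES libraries, falling by 1.42 in iPS cells and rising by 1.30 in ES cells, with an interaction of −2.72 ± 0.20 (edgeR adjusted p = 3.17e-11). Smad6, the inhibitory SMAD of BMP signalling, had 17.8 and 14.6 CPM in iPS 2i, 28.9 and 29.4 in iPS, 14.4 and 16.4 in ES 2i and 8.42 and 12.6 in ES libraries, and stayed opposite in 14 of 22 alternatives. Of 15 measured WNT targets, 6 fell and 2 rose in iPS cells, 5 fell and 1 rose in ES cells, and the 2 interaction calls were both lower, near the background of 12.2%, with 1 lower without ES replicate 1 and 1 without iPS 2i replicate 2. Of 12 measured LIF-STAT3 response genes, 4 had a higher and 3 a lower interaction (15.1% and 12.2% of all models). Several of these genes also stand in the naive and ERK lists.

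**Figure D4:**
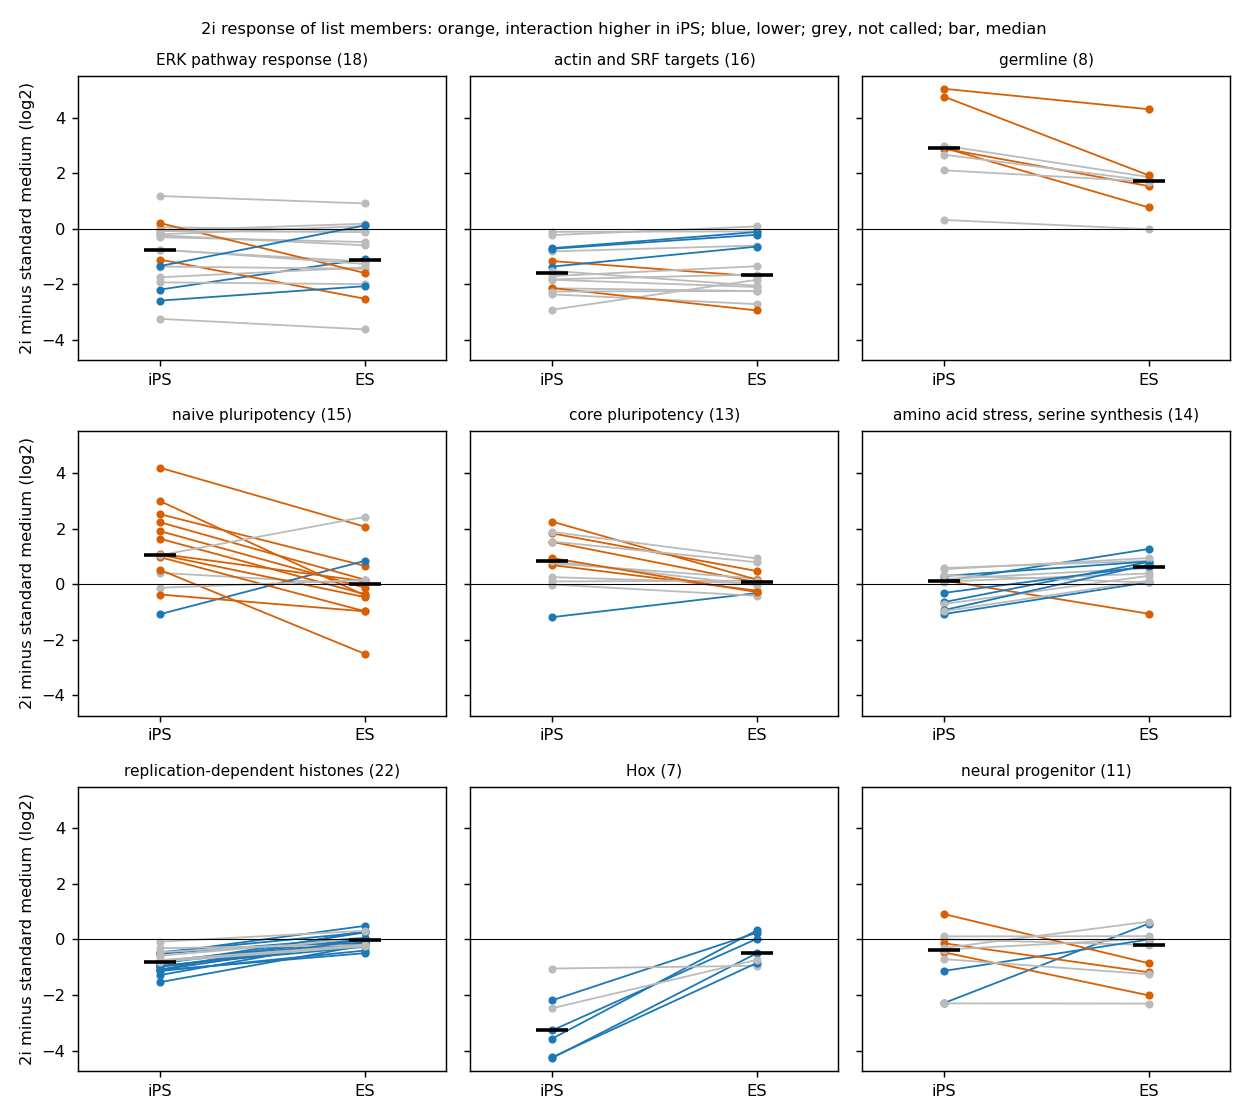
The 2i response (log2) of each measured member of 9 gene lists in iPS cells (left) and ES cells (right), with lines joining a gene; orange marks a higher interaction, blue a lower one, grey no call, and black bars are list medians. Most germline genes rise in both lines, most actin genes and 9 of 18 ERK genes fall in both, most naive genes slope down from iPS to ES, and most histone and Hox genes slope up.

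Genes of amino acid supply rose mainly in ES cells. This list holds ATF4 targets and the serine synthesis enzymes. Of 14 measured, 8 rose and 1 fell in ES cells, while in iPS cells 4 fell and none rose (2 at an unadjusted p under 0.05, and 0 by DESeq2), and the interaction was lower in 6 and higher in 1. Of all models 11.3% rose in ES cells, 21.5% fell in iPS cells, to which the list's iPS falls are near, and 12.2% had a lower interaction. The medians were 0.10 in iPS and 0.61 in ES cells. Asns, asparagine synthetase, had 840.5 and 915 CPM in iPS 2i, 798 and 834 in iPS, 1046 and 1050.3 in ES 2i and 478 and 392 in ES libraries. The ES libraries were the low ones, the ES rise was 1.26 ± 0.13 and the interaction −1.16 ± 0.18 (edgeR adjusted p = 1.26e-05). Slc7a5, the large neutral amino acid transporter, had 501 and 457 CPM in iPS 2i, 1035 and 795 in iPS, 413 and 455 in ES 2i and 259 and 275 in ES libraries, an opposite response with an interaction of −1.63 ± 0.19 (edgeR adjusted p = 1.08e-07). Phgdh, the first enzyme of serine synthesis, had 708 and 720.3 CPM in iPS 2i, 1619.5 and 1394 in iPS, 450.4 and 556 in ES 2i and 457 and 501 in ES libraries, and fell in iPS cells alone. Mthfd2, a mitochondrial folate enzyme, had an interaction of −0.96 (edgeR adjusted p = 0.000182). Of 17 measured sterol synthesis genes, 6 rose and 4 fell in iPS cells (21.1% and 21.5% of all models). In ES cells 6 rose (11.3% of all models). Their interaction was higher in 2 and lower in 4 (15.1% and 12.2% of all models). Of 18 measured glycolysis genes, 11 fell in iPS and 9 in ES cells (21.5% and 13.2% of all models). Their 2 higher and 2 lower interactions are a smaller share than the 27.3% of all models, and without iPS replicate 1, or without ES 2i replicate 2, there were 0 higher and 1 lower. Slc2a1, the GLUT1 glucose transporter, had 452 and 429 CPM in iPS 2i, 1714 and 1811 in iPS, 473 and 494 in ES 2i and 787 and 1054 in ES libraries, and an interaction of −1.07 (edgeR adjusted p = 6.77e-05).

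Most replication-dependent histone genes fell in iPS cells and had no call in ES cells. Their messages lack a poly(A) tail and are kept by the ribosomal RNA-depleting total RNA kit used here. Of 22 measured, 20 fell in iPS cells (21.5% of all models). In ES cells 1 rose and 1 fell (11.3% and 13.2% of all models). The interaction was lower in 16 (12.2% of all models). The medians were −0.81 in iPS and −0.03 in ES cells. Hist1h1e, a linker histone, had 893 and 705 CPM in iPS 2i, 2347 and 2286 in iPS, 1001 and 1024 in ES 2i and 1210.4 and 1129 in ES libraries, with an interaction of −1.33 ± 0.20 (edgeR adjusted p = 6.48e-06). Hist1h1b had 1433 and 1267 CPM in iPS 2i, 3115 and 2621 in iPS, 1405 and 1449 in ES 2i and 1251 and 1042 in ES libraries, and Hist1h1a had 3779 and 3172 CPM in iPS 2i, 4981 and 4843 in iPS, 3296 and 3437 in ES 2i and 2359 and 2440.4 in ES libraries. Both iPS libraries were above the other 6 for all 3 genes. Copies of these genes are alike and their counts are uncertain, and the number of lower interactions was 7 without iPS replicate 1, 9 without iPS 2i replicate 2 and 5 where a change of at least 2-fold was asked. Of 13 measured cell cycle regulators, the interaction was lower in 4 (12.2% of all models). There were 5 falls in iPS and 1 in ES cells (21.5% and 13.2% of all models).

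Among p53 targets, 4 of 15 measured had a higher and 1 a lower interaction, near the 27.3% of all models. The lower one did not pass without ES replicate 1, ES 2i replicate 2, iPS replicate 1 or either iPS 2i library. Btg2, an antiproliferative gene, had 124 and 131 CPM in iPS 2i, 99.6 and 108 in iPS, 69 and 67.8 in ES 2i and 158 and 147 in ES libraries, and Plk2, a polo-like kinase, had 104 and 104 CPM in iPS 2i, 94.6 and 103 in iPS, 65 and 65.9 in ES 2i and 158 and 139 in ES libraries. Both fell in ES cells alone, by 1.16 and 1.18 on the log2 scale, with interactions of 1.45 and 1.26 and edgeR adjusted p-values of 4.61e-07 and 3.48e-06. Btg2 stayed in the ES-only class in 16 of 22 alternatives, and both iPS 2i libraries were above both iPS libraries. Perp, a p53 target of desmosomes, fell by 1.43 in iPS and by 1.74 in ES cells, with no interaction call.

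Of 7 Hox genes measured, whose products give cells their place along the trunk, 6 fell in iPS cells, none changed in ES cells (1 at an unadjusted p under 0.05, and 0 by DESeq2), and 5 had a lower interaction. Hoxa4 had 1.02 and 1.42 CPM in iPS 2i, 32.4 and 25.7 in iPS, 0.251 and 0.584 in ES 2i and 0.73 and 0.527 in ES libraries, and Hoxb2 had 0.615 and 0.812 CPM in iPS 2i, 20.6 and 16.2 in iPS, 0.376 and 0.454 in ES 2i and 1.07 and 0.527 in ES libraries. Their interactions were −3.77 ± 0.72 and −3.39 ± 0.75, with edgeR adjusted p-values of 0.000183 and 0.00074. Hoxa5, Hoxa3 and Hoxa2 had interactions of −3.29, −3.90 and −2.43. That of Hoxa2 passed without ES 2i replicate 1 and with no other single library left out. Hox genes were near or below 1 CPM in ES cells, where a fall could hardly be measured, and with reads thinned to the smallest library total the number of lower interactions was 1. Sox1, a neural plate factor, had 54.5 and 49.8 CPM in iPS 2i, 269.7 and 240.2 in iPS, 32.7 and 34.9 in ES 2i and 22.3 and 23.4 in ES libraries. It fell by 2.29 in iPS cells and rose by 0.57 in ES cells, with an interaction of −2.86 ± 0.20 (edgeR adjusted p = 1.12e-11). Olig2, a factor of motor neuron and oligodendrocyte precursors, went the opposite way, with 29.7 and 27.7 CPM in iPS 2i, 16.3 and 14 in iPS, 17.7 and 18 in ES 2i and 31.1 and 34.8 in ES libraries. Of 11 measured neural progenitor genes, 4 fell and 1 rose in iPS cells (21.5% and 21.1% of all models). In ES cells 5 fell and 1 rose (13.2% and 11.3% of all models). The interaction was higher in 3 and lower in 2 (15.1% and 12.2% of all models, which is also the scale for the Hox genes).

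The 3 collagen genes named here responded in unlike ways. Col1a1 had 82.6 and 78.2 CPM in iPS 2i, 259.8 and 188 in iPS, 44.6 and 39.9 in ES 2i and 37.2 and 43.5 in ES libraries, Col6a1 had 39.2 and 37.4 CPM in iPS 2i, 80.2 and 83.2 in iPS, 16.2 and 18.2 in ES 2i and 9.94 and 10.5 in ES libraries and Col3a1 had 232 and 226 CPM in iPS 2i, 96.5 and 120.3 in iPS, 116 and 116 in ES 2i and 15.6 and 19.2 in ES libraries. Col1a1 fell in iPS cells alone, Col6a1 fell in iPS and rose in ES cells, and Col3a1 rose in both lines, by 1.07 in iPS and by 2.76 in ES cells. Their interactions were −1.56, −1.84 and −1.69, with edgeR adjusted p-values of 1.43e-06, 5.09e-07 and 3.46e-07. Of 9 measured fibroblast genes, 8 fell and 1 rose in iPS cells (21.5% and 21.1% of all models). In ES cells 5 fell and 3 rose (13.2% and 11.3% of all models). The interaction was lower in 4 and higher in 1 (12.2% and 15.1% of all models). The summed level of this list was lower in iPS 2i than in iPS libraries, as were those of the Hox and neural lists, and its part in their values was not tested.

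Imprinted genes, expressed from one parental allele, were split. Of 11 measured, 4 had a higher and 2 a lower interaction, and 1 was lower without iPS replicate 1, without either iPS 2i or ES library and without ES 2i replicate 1. Peg12 had 11.9 and 13.9 CPM in iPS 2i, 47.4 and 44.4 in iPS, 15.5 and 14 in ES 2i and 5.89 and 6.32 in ES libraries, with an interaction of −3.06 ± 0.26 (edgeR adjusted p = 2.38e-10), and Impact, a translation regulator, had 60.5 and 90.4 CPM in iPS 2i, 41.4 and 55.7 in iPS, 85.8 and 80.3 in ES 2i and 217 and 219 in ES libraries, with 2.03 ± 0.22 (edgeR adjusted p = 3.66e-08). Peg10, a retrotransposon-derived gene of the placenta, had 44.5 and 44.8 CPM in iPS 2i, 68.9 and 82.9 in iPS, 68.9 and 73.4 in ES 2i and 352 and 386 in ES libraries. It fell in both lines and by far more in ES cells, whose standard-medium level was the highest. Of 7 measured primitive endoderm genes, 6 fell in ES cells, 3 fell and 2 rose in iPS cells, and 3 had a higher interaction. Of 7 measured retinoic acid genes, 6 fell in iPS and 3 in ES cells, with 1 lower interaction, near the share of all models. For these and the imprinted genes, the shares of all models were 15.1% with a higher and 12.2% with a lower interaction. Falls made up 21.5% in iPS and 13.2% in ES cells, and rises 21.1% in iPS cells. Of 9 measured chromatin architecture genes, 3 rose in iPS cells, with 2 higher interactions, near the share of all models, and ES cells had 0 calls by edgeR or DESeq2 and 0 at an unadjusted p under 0.05. Without iPS replicate 1, and likewise without iPS 2i replicate 2, the list had 0 higher interactions. None of 5 measured MHC class I genes and none of 4 measured DNA methylation genes had an interaction call by edgeR or DESeq2, or an unadjusted p under 0.05. These lists name 12 and 10 genes, and the members not measured are not covered. With so few measured, a lack of calls cannot be told from the 27.3% of all models. The 2-cell list had 1 measured gene, with a higher interaction that did not pass without iPS replicate 1, ES replicate 1 or ES 2i replicate 2.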

How the data were processed

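RNA was measured in 10 libraries of 5 groups, of which 8 libraries of 4 groups enter the comparisons. Per the labels' protocols, each used 350 ng of total RNA, a stranded kit that depletes ribosomal RNA and 75 cycles from either end. Raw read counts for 55419 transcript models were deposited. The submitters' processing notes name TopHat, TopHat2 2.1.0, HTSeq and mm9. The strand setting of the counting is not given in the sources used here. Reads of overlapping models count as ambiguous, and antisense pairs are uncertain. The authors also deposited a table of normalized log2 values, used for the names and positions of 11767 models (10334 symbols) and for an alternative.

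Counts were fitted with edgeR 4.0.16 in R 4.3.3 (quasi-likelihood F test, TMM scaling, filter by expression in the group, prior count 2, which draws fold changes of low models toward 0). The model held a mean for each of 5 groups over 10 libraries, leaving 5 residual degrees of freedom and a coefficient of variation of 0.117. P-values were adjusted over 11031 models (10355 with a symbol), 44388 having been filtered out, at a threshold of 0.05. The 92 spike-in and 5 summary entries stayed out. Where a symbol has several models, the one highest in mean CPM stands for it. Genes named by size have an average of at least 3 log2 CPM and 2i libraries clear of the standard-medium libraries in each called line: 4 of each direction of the opposite, iPS-only and ES-only classes, 3 shared rises and falls, and 2 of each with unequal size. The genes and the 27 lists were chosen with earlier results of these data known. Promoters came from RefSeq. The fit was run on simulated counts with known interaction changes, drawn with the fit's own spread. Such counts cannot show whether the 2 libraries of a group are more than technical replicates. Alternatives used limma 3.58.1 and DESeq2 1.42.0. The 8 libraries held 3729837 to 17286063 assigned reads, which limits low models most.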

Additional observations from a re-analysis of the deposited data

Results flagged for a closer look

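Among the genes named above, 83 had a 2i response that differed between iPS and ES cells by the interaction test of edgeR at an adjusted p under 0.05. The values below are that difference, (iPS 2i minus iPS) minus (ES 2i minus ES), in log2. Positive ones are higher in iPS cells, and the genes were chosen for size or as list members, so their number says nothing about the genome.

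Opposite responses with a higher value were 4.65 for Fabp3, 4.29 for Krt42, 4.07 for Gm4934, 3.94 for Gcnt2, 3.56 for Ascl2, 2.03 for Impact, 2.00 for Tdh, 1.94 for Dppa5a, 1.77 for Olig2 and 1.53 for Nr0b1. Those with a lower value were −6.68 for Wdfy4, −4.30 for Zic2, −3.79 for Abca13, −3.43 for Podxl2, −3.14 for Zic5, −3.06 for Peg12, −2.86 for Sox1, −2.72 for Id3, −1.92 for Klf4, −1.84 for Col6a1, −1.63 for Slc7a5, −1.49 for Smad6 and −0.99 for Hist1h1a. The lack of a call in a line does not show that it had no change. Responses called in iPS cells alone with a higher value were 4.01 for 1190002H23Rik, 3.81 for Ankrd45, 3.39 for Tcfcp2l1, 3.24 for Mylpf, 2.07 for Zfp57, 2.03 for Klf5, 1.86 for Esrrb, 1.49 for Foxd3, 1.45 for Sox2, 1.23 for Mybl2 and 0.99 for Fgf4. Those with a lower value were −3.90 for Hoxa3, −3.87 for Chst13, −3.78 for Pkp1, −3.77 for Hoxa4, −3.45 for Apcdd1, −3.43 for Samd14, −3.39 for Hoxb2, −3.29 for Hoxa5, −2.43 for Hoxa2, −1.56 for Col1a1, −1.46 for Ccnd1, −1.40 for Hist1h1b, −1.33 for Hist1h1e, −1.15 for Phgdh, −1.13 for Vim and −0.87 for Pou5f1.

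Responses called in ES cells alone with a higher value were 5.02 for AU015836, 3.02 for Dppa3, 2.76 for Gpnmb, 2.48 for Stmn3, 1.79 for Spry4, 1.45 for Btg2 and 1.26 for Plk2. Those with a lower value were −2.36 for P4htm, −2.18 for Ttc39c, −2.13 for 2810030E01Rik, −2.10 for Cyp2b23, −1.16 for Asns and −0.96 for Mthfd2. Responses of unequal size in the same direction with a higher value were 3.70 for Sept1, 3.60 for Mmrn2, 2.83 for Rpl10l, 2.14 for Mael, 2.12 for Prdm14, 1.60 for Peg10, 1.41 for Fosl1, 1.35 for Dppa2, 1.35 for Piwil2, 1.11 for Id2, 0.81 for Id1 and 0.74 for Sohlh2. Those with a lower value were −2.61 for Ube2ql1, −2.54 for Sh3pxd2b, −2.42 for Lefty1, −1.69 for Col3a1, −1.10 for Fos, −1.07 for Slc2a1, −0.60 for Krt8 and −0.52 for Dusp4.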

How the results depend on the processing

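No gene with an interaction call among those named above changed sign in any of the 20 alternatives run for single genes, and 63 of the 83 kept their call in each of those that gave a value, while 20 lost it in at least 1, among them Piwil2, Fgf4, Foxd3, Klf5 and Dppa2 with limma on the authors' log2 values alone, and Hoxa4, Hoxa5, Hoxb2 and Samd14 with thinned reads alone. Across all models, 63.2% to 100% of the 3011 interaction calls were also called, with 0 in the opposite direction. The counts that moved by over 1.5 times were these, where shared models are those of both kinds, 1332 in the report's fit. At an adjusted p of 0.01 there were 1902 interaction calls (1052 higher and 850 lower), 1797 ES calls, 887 shared, 243 ES-only and 164 opposite models. With a change of at least 2-fold there were 1906 interaction calls (1062 higher and 844 lower), 2694 iPS and 1388 ES calls, 743 shared, 1077 iPS-only, 218 ES-only and 62 opposite models. With limma on the authors' log2 values, an alternative chosen after seeing the data, there were 1927 interaction calls, 938 of them higher, and 1594 ES calls, 801 shared, 215 ES-only and 166 opposite models. A smaller prior count, also chosen after seeing the data, left the calls as they were. For these count changes and the sign changes below, the cause was not tested.

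Leaving out each library gave 2003 to 3174 interaction calls (1115 to 1911 higher, 888 to 1263 lower), 3369 to 5012 iPS and 1803 to 2707 ES calls, 1050 to 1195 shared, 1113 to 1968 iPS-only, 251 to 361 ES-only and 167 to 370 opposite models. The moves of over 1.5 times came without iPS replicate 1 (2003 interaction calls, 888 lower, 1113 iPS-only and 192 opposite models), without ES replicate 1 (1803 ES calls, 251 ES-only and 167 opposite models) and without ES 2i replicate 2 (222 opposite models). A group left with 1 library was assumed to vary like the others. Sign changes were found in 6 genes whose interaction was near 0 and not called. For Rgs16 the interaction was 0.0150 with DESeq2 size factors, 0.00845 without the filter, 0.0432 with DESeq2, 0.0333 with limma-voom, 0.180 with thinned reads, 0.0322 on the authors' log2 values, 0.0199 with the smaller prior count and −0.0771 to 0.163 without single libraries. For AK139522 it was 0.300 with DESeq2, 0.160 with limma-voom, 0.0138 in the 8 libraries alone, 0.301 with the smaller prior count and −0.808 to 0.278 without single libraries. For Lad1 it was −0.0419 with the stricter filter, −0.00178 with limma-voom and −0.290 to 0.508 without single libraries. Pnpla8 had −0.00581 with the stricter filter and −0.0735 to 0.187 without single libraries, Krt19 had 0.00953 with thinned reads, and AK139772 had −0.486 to 0.154 without single libraries.

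With the replicate number as a block there were 2937 interaction calls (1632 higher and 1305 lower), 4621 iPS and 2622 ES calls, 1305 shared, 1743 iPS-only, 396 ES-only and 310 opposite models. Deviations of same-numbered libraries correlated at −0.0801 to 0.0722 across models, and iPS replicate 2 by its title carries another number in its file, so the numbers were not taken to pair the libraries. Each group holds 2 libraries, and nothing in the labels used here gives separate cultures, which sets what the p-values can measure. The smallest library had 3729837 assigned reads. Thinned to that depth, 2412 interaction calls were made. The stricter filter, a mean of at least 5 CPM in each line, left no Hox gene, so low models such as these rest on the standard filter.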
